A study of Homo sapiens with 12 samples.

Results

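HSF1 CUT&Tag peaks whose summit lay at the promoter of a single protein-coding gene and over a CCAAT box were examined in Huh7 cells. A peak was counted when its summit was within 1 kb of the outermost annotated start of a coding gene, was not within 1 kb of a divergent pair of coding starts, and had the letters CCAAT on either strand wholly inside the window from 100 bp before to 100 bp after the summit. Of 7129 HSF1 peaks on chromosomes 1 to 22 and X, 1163 (16.3%) met the rule. Another 2049 peaks (28.7%) lay at single coding promoters without a CCAAT box, 410 (5.75%) lay at divergent coding promoters, and 3507 had no coding start within 1 kb. The share of single-promoter peaks with a box was therefore 36.2% of 3212. A divergent pair was a minus-strand start at or to the left of a plus-strand start, at most 1 kb away. Other arrangements of coding starts on opposite strands, such as genes that overlap at the start, were kept. Of the 1163 peaks, 71 had coding starts on opposite strands within 1 kb.

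Huh7 is a human hepatocellular carcinoma line, and the study asked how HSF1 relates to regulatory elements in liver cancer. CUT&Tag, in which an antibody directs a transposase to cut and tag chromatin in place, was run on untreated Huh7 cells against HSF1 and against H3K27ac, a histone mark of active promoters and enhancers, with 1 library for each. The ChIP-seq libraries after siRNA transfection and the RNA-seq libraries were not used here. The HSF1 list rested on 2712212 tags kept of 3604911 (75.2%), and the H3K27ac list on 896393 kept of 15737890 (5.70%), with 1291 peaks on the same chromosomes. With 1 library each, no difference could be tested against replicates. The intervals given below are 95% intervals over peaks, boxes or genes of those libraries, and they cover counting error or the spread between peaks only.

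HSF1 is the main transcription factor of the heat shock response. It binds as a trimer to the heat shock element, an array of inverted GAA units, and drives genes of chaperones such as HSP90 and HSP70. The CCAAT box is the binding sequence of NF-Y, a trimer of NFYA, NFYB and NFYC. NFYA reads the box in the minor groove, while NFYB and NFYC form a histone-like pair that holds the DNA around it. Such boxes commonly lie shortly upstream of the start of genes of the cell cycle, of the endoplasmic reticulum (ER) stress response and of sterol synthesis. No NF-Y binding was measured in this series, so that a box here is a match of letters and not a bound site.

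The sequences below show how the boxes were arranged. They are hg38 reference sequence, written along the strand of the gene with 12 bases around the outermost boxes, and capitals mark CCAAT or its reverse complement ATTGG. The first set holds 3 of the 4 peaks with 6 boxes, the highest number, and AP2A1 with 4:
ZNF77 (chr19:2944977-2945178, minus strand): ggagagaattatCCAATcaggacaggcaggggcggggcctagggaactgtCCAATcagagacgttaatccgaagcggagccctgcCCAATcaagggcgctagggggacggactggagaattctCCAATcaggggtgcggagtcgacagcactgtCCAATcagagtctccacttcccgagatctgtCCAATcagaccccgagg
SP2 (chr17:47895987-47896164, plus strand): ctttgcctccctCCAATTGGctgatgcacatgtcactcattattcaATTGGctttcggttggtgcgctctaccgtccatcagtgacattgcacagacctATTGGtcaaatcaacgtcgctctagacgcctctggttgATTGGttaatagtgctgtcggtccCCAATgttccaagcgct
PPP2R5D (chr6:42984392-42984555, plus strand): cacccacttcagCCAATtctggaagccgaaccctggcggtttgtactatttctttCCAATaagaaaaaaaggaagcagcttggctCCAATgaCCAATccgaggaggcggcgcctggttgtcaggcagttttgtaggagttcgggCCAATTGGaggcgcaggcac
AP2A1 (chr19:49766530-49766716, plus strand): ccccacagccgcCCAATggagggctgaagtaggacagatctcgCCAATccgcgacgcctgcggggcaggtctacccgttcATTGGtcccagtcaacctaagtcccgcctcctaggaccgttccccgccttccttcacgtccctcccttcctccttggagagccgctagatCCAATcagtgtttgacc

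At ZNF77, which encodes a zinc finger protein, all 6 boxes read CCAAT along the gene strand, each was followed by the bases ca, and neighbouring centres were 31 to 38 bp apart. SP2, a factor of the Sp family, PPP2R5D, a regulatory subunit of protein phosphatase 2A, and HAPSTR1, a stress response regulator, held the 8-base overlap CCAATTGG, which counts as 2 boxes 3 bp apart. The other peak with 6 boxes, at PHKG2, a subunit of phosphorylase kinase, lay in exonic sequence. The next set shows boxes at promoters of mitotic, ER and cholesterol genes and at HAPSTR1, one of the highest peaks:
CCNB1 (chr5:69167051-69167111, plus strand): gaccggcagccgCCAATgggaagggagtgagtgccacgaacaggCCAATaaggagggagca
TOP2A (chr17:40417933-40418068, minus strand): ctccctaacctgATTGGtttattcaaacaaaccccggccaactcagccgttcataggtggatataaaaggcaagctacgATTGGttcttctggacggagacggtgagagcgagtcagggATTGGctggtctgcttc
HSPA5 (chr9:125241515-125241608, minus strand): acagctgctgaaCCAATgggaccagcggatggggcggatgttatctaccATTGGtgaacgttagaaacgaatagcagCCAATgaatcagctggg
MVD (chr16:88663160-88663262, minus strand): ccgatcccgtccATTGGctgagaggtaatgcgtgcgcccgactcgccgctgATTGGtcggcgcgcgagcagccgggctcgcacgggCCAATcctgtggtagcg
HAPSTR1 (chr16:9091396-9091458, plus strand): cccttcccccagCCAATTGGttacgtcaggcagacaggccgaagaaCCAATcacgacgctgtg

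The last pair shows an example of each of the longer elements described below. At XBP1 the capitals also mark the CCACG of an ER stress element, and at PLK2 they also mark the 3 inverted units of a heat shock element:
XBP1 (chr22:28800598-28800674, minus strand): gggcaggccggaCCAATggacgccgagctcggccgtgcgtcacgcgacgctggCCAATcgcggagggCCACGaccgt
PLK2 (chr5:58460887-58460944, minus strand): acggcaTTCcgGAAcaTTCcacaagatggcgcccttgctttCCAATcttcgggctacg

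The boxes were denser near the HSF1 summit than far from it. Over all 3212 single-promoter peaks, a set that the box rule did not choose, there were 3.44 boxes per kb within 39 bp of the summit and 0.926 per kb at 400 to 499 bp, a ratio of 3.71. Boxes are common near gene starts, so summits were also taken by their distance to the start. The same ratio was 4.36 for the 1249 summits under 100 bp from the start, 3.59 for the 1241 summits from 100 to under 300 bp and 2.82 for the 722 summits at 300 to 1000 bp. Boxes were thus denser near the summit than at 400 to 499 bp in each of the 3 classes. In the middle class the density was 3.22 per kb at 0 to 19 bp and 3.20 at 60 to 79 bp from the summit. Starts without an HSF1 peak also had 2.85 boxes per kb 61 to 80 bp upstream and 0.684 at 20 to 39 bp downstream. The classes therefore do not separate nearness to the summit from nearness to the start, and this was not tested. The share of peaks with a box within 100 bp was 39.7% (37.0 to 42.5) in the nearest of these classes, 37.5% (34.8 to 40.2) in the middle one and 28.0% (24.8 to 31.4) in the farthest.

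**Figure D1:**
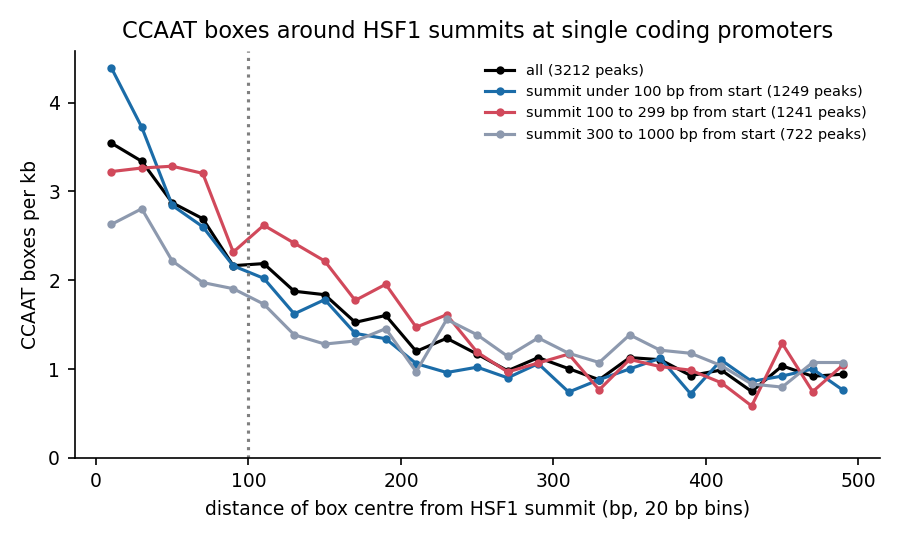
CCAAT boxes per kb (y axis) against the distance of the box centre from the HSF1 summit (x axis, bp, in bins of 20 bp), for all 3212 HSF1 peaks at single coding promoters and for 3 classes by distance of the summit from the gene start. Boxes are denser near the summit than far from it on each line, the lines level off near 1 box per kb, and the dotted line marks the 100 bp limit.

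Within the 1163 peaks, the box nearest to the summit had its centre at a median of 30 bp (quartiles 12 and 56). It lay within 20 bp in 37.9% of peaks and within 50 bp in 69.9%. The 100 bp rule bears on all of these values, and they are given as a description. At the limit, the farthest boxes counted were 98 bp from the summit, at ATP5PF, PIN4 and STX5. Boxes at 99 bp, at CDC23 and HPS3, and at 100 bp, at EFCAB7, reached past the window and were not counted. For the distance to the start, EP300 was inside at 993 bp and CHEK1 was outside at 1004 bp.

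Relative to the gene, the summits lay mostly upstream. The median summit was 63 bp upstream of the start (quartiles 150 bp upstream and 29 bp downstream), and 806 of 1163 (69.3%) were upstream, against 53.5% of the peaks without a box. The rule requires a box near the summit, and boxes were denser shortly upstream also at starts without an HSF1 peak. This difference and the position of the nearest box therefore depend in part on the rule, and they are given as a description. By the annotation, 592 summits (50.9%) fell between genes, 371 (31.9%) in an exon and 200 (17.2%) in an intron. The nearest box was centred 30 to 130 bp upstream of the start in 451 peaks (38.8%, 36.0 to 41.6). Among single coding starts, the 3469 with an HSF1 peak within 1 kb had their highest density of boxes 41 to 60 bp upstream, at 4.96 per kb. The 14774 without one had theirs 61 to 80 bp upstream, at 2.85 per kb. The density at these maxima was higher where HSF1 peaks were found.

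**Figure D2:**
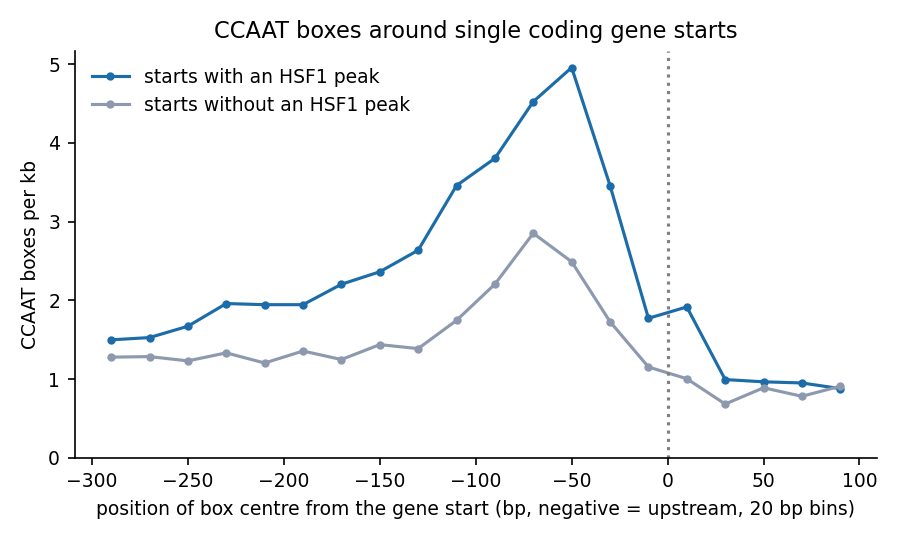
CCAAT boxes per kb (y axis) against the position of the box centre relative to the outermost gene start (x axis, bp, in bins of 20 bp, negative values upstream), for 3469 single coding starts with an HSF1 peak within 1 kb and 14774 without. Both lines rise shortly upstream of the start, to 4.96 and 2.85 boxes per kb.

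More than 1 box was common. Of the 1163 peaks, 694 held 1 box, 300 held 2, 125 held 3, 40 held 4 and 4 held 6. The share with 2 or more was 40.3% (37.5 to 43.2). For comparison, windows of the same width centred 63 bp upstream of single coding starts without an HSF1 peak were used, and 3804 of 14774 held a box. Of these 3804, 23.5% (22.2 to 24.8) held 2 or more. Windows placed in the same way at the starts with an HSF1 peak held a box in 37.9% (36.3 to 39.5) of cases, against 25.7% (25 to 26.5) without a peak. Among those with a box, 40.9% (38.2 to 43.5) held 2 or more. The shares were also taken among windows of similar base composition. With the GC content held between 60.2% and 69.2%, the quartiles of the 1163 peaks, the shares with 2 or more were 43.5% (39.5 to 47.6) with a peak and 25.5% (22.7 to 28.6) without. Among the 1163 peaks themselves it was 38.6% (34.8 to 42.6) in this range, a narrower gap than over all GC contents. Expression and open chromatin at these starts were not used, and an active promoter and a promoter with HSF1 cannot be told apart in this comparison.

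Neighbouring boxes lay about 40 bp apart at the median in both sets. The 690 neighbouring pairs in the 1163 peaks had a median spacing of 41 bp between centres, and the 1107 pairs at starts without a peak a median of 39 bp. A spacing of 20 to 40 bp was as frequent in the peaks (38.0%, 34.4 to 41.6) as at the starts without a peak (38.8%, 35.9 to 41.7), within counting error. The commonest single value was 31 bp, with 40 pairs, the spacing seen in ZNF77, AP2A1 and HAPSTR1 above. Pairs 30 to 33 bp apart made up 14.3% (11.9 to 17.2), pairs 40 to 43 bp apart 10.7% (8.63 to 13.3) and pairs 50 to 53 bp apart 6.81% (5.16 to 8.94). The share was 6.67% (5.04 to 8.78) at 34 to 37 bp, 4.20% (2.94 to 5.97) at 44 to 48 bp and 2.17% (1.32 to 3.56) at 55 to 58 bp. These windows were chosen after the values were seen, so their order is a description only, and the share at 34 to 37 bp was as high as that at 50 to 53 bp within counting error. At starts without a peak the share was 11.5% (9.73 to 13.5) at 30 to 33 bp, 7.14% (5.76 to 8.81) at 40 to 43 bp and 4.25% (3.21 to 5.60) at 50 to 53 bp. It was 7.41% (6.01 to 9.10) at 34 to 37 bp, 5.51% (4.31 to 7.01) at 44 to 48 bp and 3.34% (2.43 to 4.57) at 55 to 58 bp. In each of the 6 windows the interval overlapped that of the peaks.

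**Figure D3:**
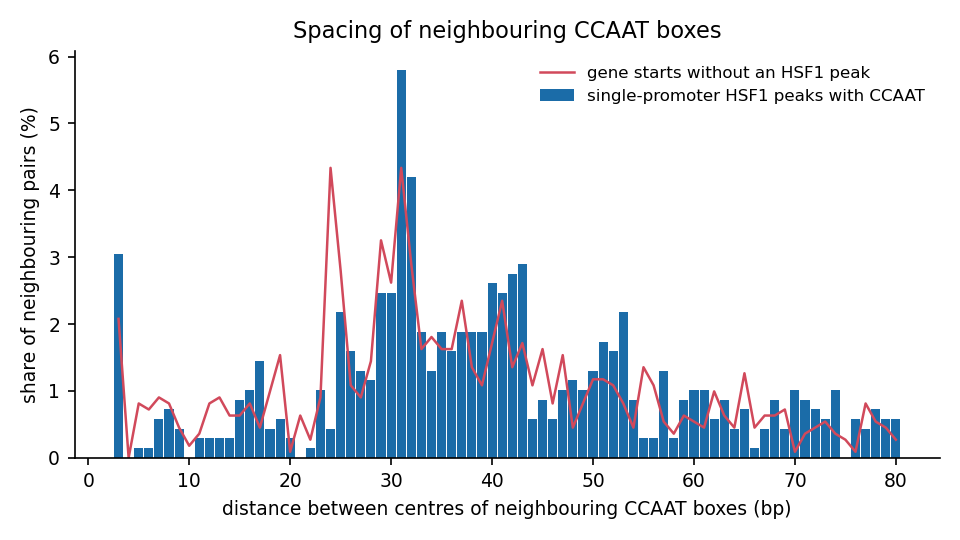
Share of neighbouring CCAAT box pairs (y axis, percent) at each distance between box centres (x axis, bp, up to 80), for the 690 pairs in HSF1 peaks at single CCAAT-box promoters (bars) and the 1107 pairs at gene starts without an HSF1 peak (line). The highest bar is at 31 bp, with 40 pairs, and the bar at 3 bp is the overlapping CCAATTGG.

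Pairs about 30 bp apart were nearly all on the same strand. Both boxes read in the same direction in 93 of the 99 pairs at 30 to 33 bp (93.9%, 87.4 to 97.2), against 100 of 127 (78.7%, 70.8 to 85.0) at starts without a peak. These 99 pairs came from 94 peaks. Over all spacings the same direction was seen in 66.7% (63.1 to 70.1) of pairs, against 60.3% (57.4 to 63.2). At 40 to 43 bp, 86.5% (76.9 to 92.5) of pairs in the peaks and 88.6% (79.7 to 93.9) at starts without a peak had the same direction. Relative to the gene there was little preference. The nearest box read CCAAT on the gene strand in 52.7% (49.8 to 55.6) of peaks and in 49.1% (47.5 to 50.7) of windows at starts without a peak.

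The bases around the pentamer differed from those of other boxes. The extended NF-Y box, RRCCAATSR in ambiguity code, in which a purine fills each of the positions before the pentamer and a C or G and then a purine follow it, was present in the window of 558 of 1163 peaks (48.0%, 45.1 to 50.9). It was present in 29.5% (28.1 to 31) of the windows with a box at starts without a peak. The windows of the peaks held more boxes, a mean of 1.59 against 1.29, and so had more chances to hold it. At the nearest box alone the share was 38.8% (36.0 to 41.6) in the peaks and 25.5% (24.2 to 26.9) at starts without a peak. At 1444 boxes more than 100 and up to 500 bp from the summits of the 1163 peaks it was 23.1% (21.0 to 25.3). A C directly after the pentamer, as at each box of ZNF77, was found in 49.5% (46.7 to 52.4) of the nearest boxes, 38.5% (36.9 to 40.02) of boxes at starts without a peak and 37.5% (35.1 to 40.1) of the farther boxes. The G directly before it was found in 46.7% (43.8 to 49.6), 38.9% (37.4 to 40.5) and 40.4% (37.9 to 43). In windows of matched GC content the gap by window was narrower. The extended box was present in 45.6% (41.6 to 49.7) of peaks and 36.6% (33.4 to 39.9) of starts, again without allowing for the number of boxes. Peaks with the extended box also held 2 or more boxes more often, 55.7% (51.6 to 59.8) against 26.1% (22.8 to 29.8), although a window with more boxes has more chances to hold it.

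Peaks over a CCAAT box were somewhat higher than those at single promoters without one, while for the height against divergent promoters the interval of the ratio included 0. Height was taken as the pileup, which counts the extended tags stacked at the summit, and as the fold enrichment, the pileup over the local background. The median pileup was 15 (interval of the median 14 to 15, quartiles 11 and 21) with a box, 13 (13 to 13, quartiles 10 and 18) without one and 14 (13 to 15) at divergent promoters. The median fold enrichment was 7.71 (7.52 to 7.81), 6.94 (6.85 to 7.05) and 7.43 (7.23 to 7.65) in the same order. The ratio of medians, with a box over without, was 0.21 on the log2 scale for the pileup and 0.15 for the fold enrichment, and the quartiles overlapped widely. For the pileup it was 0.0995 when peaks under a -log10 q of 5 were left out, and for the peak length it was 0.105. Against divergent promoters the ratio was 0.10 (-0.10 to 0.21) for the pileup, 0.05 (-0.02 to 0.11) for the fold enrichment and -0.12 (-0.21 to -0.01) for the length, with medians of 399 and 435 bp. The difference in fold enrichment between single-promoter peaks with and without a box was smallest in GC-rich windows. Above 71.6% GC the medians were 7.07 (6.82 to 7.56) with a box and 6.85 (6.67 to 7.06) without, while at or below 62.2% GC they were 7.79 (7.35 to 7.95) and 6.76 (6.60 to 6.94). The peaks with a box had a median GC content of 64.7%, and those without one 68.2%.

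Peaks with more boxes were higher, up to 3 boxes. The median fold enrichment was 7.50 (7.23 to 7.73) with 1 box, 7.87 (7.62 to 8.05) with 2 and 8.16 (7.81 to 8.97) with 3, so that the intervals of neighbouring numbers overlapped and those of 1 and 3 boxes did not. With 4 or 6 boxes it was 7.75 (6.70 to 9.28), an interval that covers the other values. The higher a single-promoter peak, the more often it held a box. With the 3212 peaks in 4 groups by fold enrichment, the share was 25.1% (22.2 to 28.2) in the lowest group, 34.5% (31.2 to 37.9) and 38.3% (35.1 to 41.6) in the middle groups, and 46.7% (43.3 to 50.2) in the highest. Of the 100 peaks with the highest fold enrichment, 52 held a box (52.0%, 42.3 to 61.5).

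**Figure D4:**
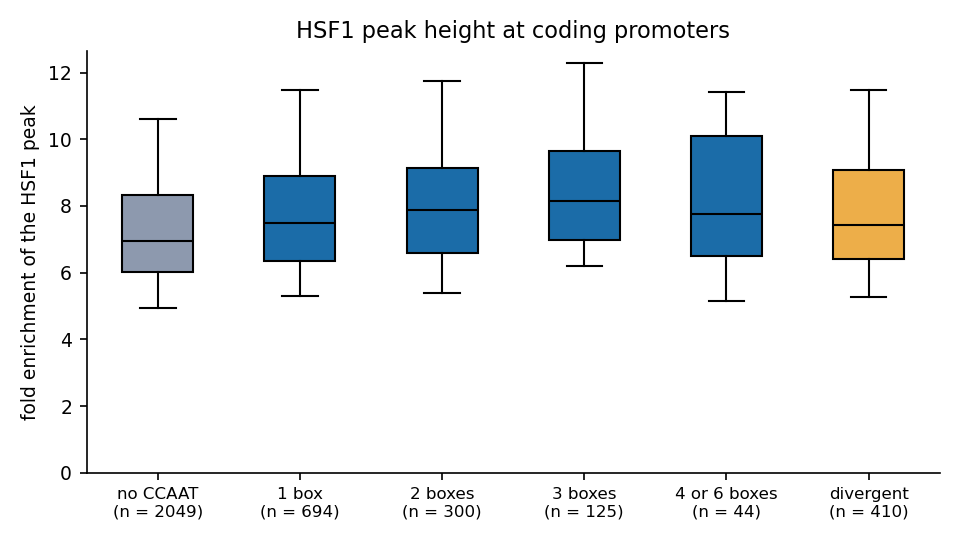
Fold enrichment of HSF1 peaks (y axis) at single coding promoters without a CCAAT box, with 1, 2, 3 and 4 or 6 boxes within 100 bp of the summit, and at divergent coding promoters (x axis, with the number of peaks). Lines mark medians, boxes the quartiles and whiskers the 5th and 95th percentiles of peaks of 1 library, and the medians run from 6.94 without a box to 8.16 with 3 boxes.

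The highest of the 1163 peaks over a box belonged to genes of varied function. Among them GATAD2A, a subunit of the NuRD chromatin remodelling complex, had the highest fold enrichment (15.5) and the highest pileup (79), with 1 box 61 bp from the summit. HDGFL2, a chromatin-associated protein, followed with a fold enrichment of 14.1, a pileup of 44 and 3 boxes. COQ10B, which acts in coenzyme Q function, had a fold enrichment of 13.9 and 1 box. PWWP2A, a reader of histone variant H2A.Z, had 13.8 and 2 boxes, the nearer of them 1 bp from the summit. The other peaks among the 10 highest by fold enrichment were those of NAPA and PJA2 (1 box each), TMEM218 and HAPSTR1 (3 each), STIP1 (4) and CIC (2), from 13.1 to 13.6. By pileup the highest also included CIC (70), PC (66), RBM14 (65), ZBTB5 (63), and TOMM40 and ZDHHC5 (62 each).

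Peaks with 4 boxes were found at AP2A1 and DNM2, both of clathrin-mediated endocytosis, with a fold enrichment of 11.1 and 12.3, and at the sugar transporter gene SLC2A8, with 12.1. SRGAP2 and SRGAP2C also held 4 boxes each, at spacings of 41, 43 and 3 bp in both. They are near-identical copies, so that tags may have been shared between them. In all, 5 of the 1163 peaks shared 50 or more words of 31 bases in the summit window with another of them. Weaker likeness between related genes was not counted. The zinc finger genes ZNF254, ZNF714 and ZNF253, for example, each had a peak with 2 boxes 29 bp apart. Peaks and pairs of related genes may therefore not be independent, which the intervals do not cover.

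Genes were counted by the function of the product, in 25 lists. Of 19970 coding genes, 4302 (21.5%) had any HSF1 summit within 1 kb of the start and 1274 (6.38%) had a single-promoter peak over a CCAAT box, the level against which each list is read below. Of the 4302 genes with any HSF1 summit, 29.6% were among the 1274, which is the share to set beside a list with many HSF1 peaks of any kind. The 1163 peaks had 1155 distinct nearest genes. Some of the 1274 genes shared a peak with a neighbour, since 116 peaks had 2 or more coding starts within 1 kb.

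Chaperones and regulators of the ER had the highest share, 13 of 33 genes (39.4%, 24.7 to 56.3). The rule needs a box, and boxes were common at these starts. The window at the start held one in 54.5% of ER genes, in 55.3% of the mitotic genes and in 18 of the 36 cholesterol and fatty acid genes described below, against 28.6% of all coding genes. PDIA4, a protein disulfide isomerase, had a fold enrichment of 11.7, and HSPA5, the ER chaperone BiP, 10.6. HYOU1, an ER chaperone of the HSP110 class, had 9.22, P4HB, another disulfide isomerase, 8.68, and SEL1L, part of the ER-associated degradation machinery, 8.18. The nearest box was 3 bp from the summit at PDIA4 and 5 bp at HSPA5. The CRELD2 gene was reached by a peak whose nearest start was ALG12 on the opposite strand, with a fold enrichment of 8.33. The others were HSP90B1, CALR, DERL2, ERN1, XBP1, HERPUD1 and EDEM1.

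The ER stress element, CCAAT followed by 9 bases and CCACG (both strands), is the binding sequence of NF-Y with ATF6. It was present in 4 of the 1163 windows, at ALG12 with CRELD2, HSP90B1, XBP1 and HNRNPA3, and in 12 of 19970 windows at all coding starts (0.0601%). Each of the 1163 windows holds a CCAAT by the rule, and among the 5716 start windows with a box the share was 0.210% (0.120 to 0.367), against 0.344% (0.134 to 0.881) here, with overlapping intervals. The match at HNRNPA3, a splicing factor, was the one outside the ER list. These promoters were singled out after their letters had been seen.

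Genes of the cell cycle were also frequent. Of 38 mitotic and G2/M genes, 11 (28.9%, 17.0 to 44.8) had such a peak, and 10 of these peaks held 2 or more boxes. Over all 1163 peaks the share with 2 or more was 40.3%. In the ER list, the peaks other than those of P4HB, ERN1 and EDEM1 also held 2 or more. ECT2, an activator of RHOA in cytokinesis, had a fold enrichment of 11.8 with 3 boxes, TPX2, a spindle assembly factor, 10.1 with 2, and CKS2, a CDK-binding protein, 9.77 with 2. The genes of cyclin B1 (CCNB1, 8.54) and of its kinase partner CDK1 (7.83) each held 2 boxes 32 bp apart. TOP2A, the DNA topoisomerase of chromosome condensation, had 7.32, with a box 1 bp from the summit. Of 38 genes of the G1/S transition and DNA replication, 10 (26.3%, 15 to 42.0) had such a peak, among them POLA1, a DNA polymerase subunit (10.3), MCM3, a subunit of the replicative helicase (9.52), and CDC25A, a CDK phosphatase (8.48). Here 3 of the 10 held 2 or more boxes, against 40.3% of all 1163 peaks.

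Of 36 genes of cholesterol and fatty acid synthesis, 9 (25%, 13.8 to 41.1) had a peak, and none of the 9 is an enzyme of fatty acid synthesis. MSMO1, a sterol methyl oxidase, had a fold enrichment of 12.4, HMGCS1, an HMG-CoA synthase, 10.7, and MVD, mevalonate diphosphate decarboxylase, 9.83 with 3 boxes. MVK, mevalonate kinase, was reached by a peak at MMAB on the opposite strand (8.95). The peaks of HSD17B7, STARD4, LSS and FDPS lay between 6.31 and 7.95.

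Aminoacyl-tRNA synthetases, which charge tRNAs, had a peak at 12 of 37 genes (32.4%, 19.6 to 48.5). TARS1 (10.3), YARS1 (9.77) and PARS2 (8.91) were the highest. Mitochondrial carriers of the SLC25 family had one at 9 of 48 genes (18.8%, 10.2 to 31.9). Splicing factors had a peak at 15 of 87 genes (17.2%, 10.7 to 26.5), led by HNRNPC (12.9) and SNRPA (11.6), but 47 of the 87 (54.0%) had an HSF1 peak of any kind, and the 15 were 31.9% of those, close to the 29.6% of all genes. Translation initiation factors were alike, with 9 of 55 (16.4%), out of 30 with any HSF1 peak. By the same measure the share was 65.0% for the ER list (13 of 20), and the SLC25 carriers had 9 of 15. It was 52.9% for cholesterol and fatty acid synthesis, 52.4% for mitotic genes, 52.2% for aminoacyl-tRNA synthetases and 47.6% for G1/S genes. Genes of the COPI and COPII coats and SEC genes had a peak over a box at 6 of 39 (15.4%), and genes of zinc finger proteins at 64 of 509 (12.6%, 9.97 to 15.7). ZNF143 and ZNF93 led the last list, with 11.8 and 11.1.

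Chaperone genes known as targets of HSF1 were in this class about as often as other genes with an HSF1 peak. Of 32 genes of heat shock proteins and cytosolic chaperones, 15 had an HSF1 peak, and 10 of those had it at a promoter without a CCAAT box within 100 bp of the summit, among them HSP90AA1, HSPA8, HSPD1 and HSPE1. At DNAJB4 the peak lay at a divergent promoter. A peak over a box was found at 4 (12.5% of the list, 4.97 to 28.1, against 6.38% of all coding genes), which were 26.7% of those with an HSF1 peak, against 29.6% over all genes. STIP1, the co-chaperone that links HSP70 and HSP90, had a fold enrichment of 13.2, and HSPH1, an HSP110 chaperone, 7.94. The STIP1 summit lay 737 bp downstream of the outermost start, in an intron, and the HSPH1 summit 367 bp downstream, in an exon. HSPA14, a ribosome-associated HSP70, was reached by a peak at MSANTD7 (9.24). Of the 10 genes of HSF, NF-Y and MYC family factors, none had a peak over a box (upper limit 27.8%), and NFYA, MAX and MYCN had an HSF1 peak without one.

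The heat shock element itself was rare at these summits. The exact inverted units (GAA, TTC and GAA, or TTC, GAA and TTC, with 2 bases between units, both strands) were present in 4 of the 1163 windows (0.344%), at PLK2, PHF5A, HSPH1 and SPEN, in 3 of 2049 windows without a box (0.146%) and in 49 of 19970 windows at all coding starts (0.245%). PLK2 is a polo-like kinase, PHF5A a splicing factor subunit and SPEN a transcriptional repressor. Exact letters leave out the imperfect elements that HSF1 also binds.

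The lists nearest to the background of 6.38% were oxidative phosphorylation subunits (7 of 87), cytosolic ribosomal proteins (7 of 86), liver plasma proteins (4 of 47), the transcription machinery (6 of 91), DNA repair (3 of 50) and mitochondrial ribosomal proteins (4 of 78). Nucleolar ribosome biogenesis genes (6 of 47), RAB GTPases (7 of 63), proteasome subunits (5 of 48) and the CCT chaperonin (2 of 8) were above it, with intervals that, apart from that of CCT (7.15 to 59.1), reached it. Set beside the genes of each list with any HSF1 peak, the share was 28.6% for nucleolar genes, 30.4% for RAB GTPases and 27.8% for proteasome subunits, close to the 29.6% of all genes, while it was 36.4% for plasma proteins, 17.4% for mitochondrial ribosomal proteins and 12.5% for DNA repair, where 11 of 24 genes with a peak had it at a divergent promoter. The plasma proteins were APOA2, F10, FGA and AMBP, products of hepatocytes. The vacuolar ATPase and lysosomal cathepsins had 0 of 42 (upper limit 8.38%).

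Many starts held a box without an HSF1 peak. Of 69 replication-dependent histone genes, 58 held a box in the window at the start (84.1%), but 3 had an HSF1 peak and 1, H2BC3, had it at a single CCAAT-box promoter. Of 415 olfactory receptor genes, which are silent outside sensory neurons, 120 held a box and none had an HSF1 peak (upper limit 0.917%). Histone genes are alike in sequence, and reads that map to several copies were not examined.

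The mark H3K27ac was found at few of these peaks in the CUT&Tag list. Of the 1163 peaks, 75 (6.45%, 5.18 to 8.01) overlapped an H3K27ac peak by 1 bp or more, against 8.56% of all 7129 HSF1 peaks. The share was 9.27% (8.09 to 10.6) at single promoters without a box and 11% (8.30 to 14.4) at divergent promoters. With at least 50% of the HSF1 peak covered, the share was 2.67% (1.88 to 3.76) with a box and 5.22% (4.34 to 6.27) without. In the highest of the 4 groups by fold enrichment, the share with any overlap was 9.31% (6.77 to 12.7) with a box and 16.8% (13.5 to 20.6) without. In the lower groups the shares with a box were also the smaller ones, with overlapping intervals. The H3K27ac list held 1291 peaks from 896393 tags, so that a promoter outside it is one where the mark was not detectable at this depth.

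Among other promoter motifs, searched on both strands in the same windows, the GC box of the Sp factors (GGGCGG) was present in 69.9% (67.2 to 72.5) of the 1163 peaks, 65.9% (63.8 to 67.9) of single-promoter peaks without a box and 47.6% of windows at all coding starts. The ETS letters CCGGAAG were present in 11.5% (9.81 to 13.5), 15.5% (14 to 17.2) and 10.1% in the same order. The NRF1 letters (GCGCA, any base and GCGC) were present in 6.96% (5.64 to 8.57), 12.2% (10.8 to 13.6) and 6.36%. The peaks over a CCAAT box thus held fewer ETS and NRF1 letters than the other promoter peaks, which are richer in GC. The TATA letters TATAAA were present in 2.24% (1.53 to 3.26) of the peaks over a box and 1.46% (1.03 to 2.08) of those without one, against 7.70% of all starts, and the E-box CACGTG of MYC and related factors in 6.28%, 7.76% and 6.53%. The CHR of cell cycle promoters (TTTGAA) was present in 5.42% (4.26 to 6.87), 4.20% (3.41 to 5.15) and 8.22% in the same order, and the ZNF143 letters (ACTACAA) in 2.15% (1.46 to 3.15), 3.66% (2.93 to 4.56) and 2.20%. The YY1 letters (AAGATGGC) were present in 2.92%, 3.56% and 2.33%, and the CRE (TGACGTCA) in 2.24%, 1.95% and 2.07%.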

How the data were processed

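The authors sequenced CUT&Tag libraries of untreated Huh7 cells and called peaks for each library by itself. The file headers name MACS 2.1.4, with no control library, a p-value cutoff of 1e-05 and tags extended to 200 bp, and the coordinates matched hg38. Each deposited pileup value is a signal that counts extended tags at the summit and was not scaled to depth. Fold enrichment as deposited is a ratio of this pileup to the local background. The caller also gave a deposited -log10 p-value for each peak. A -log10 q-value was deposited beside it. The headers say that q-values were not calculated although the column holds values, and -log10 q served here only as a filter in an alternative. H3K27ac ChIP-seq lists were not used, since their headers name hg19.

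Gene starts came from GENCODE release 44 and sequence from the hg38 reference. CCAAT and ATTGG were searched within 100 bp of summits with Python 3.11.15, pysam 0.24.0, numpy 2.4.6 and pandas 2.3.3. Distances were taken between the centre of a box and the summit or start. Windows of the same width at single coding starts without an HSF1 summit within 1 kb served as the comparison, placed 63 bp upstream, at the median summit offset. Shares have 95% Wilson intervals and medians 95% order statistic intervals. No test was made, since each library stands alone. The code was tested on simulated peaks.

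The peaks, the 25 gene lists and the motifs were chosen with earlier results of these data known. Genes were named by rule: the 10 highest by fold enrichment and by pileup, those with most boxes, and up to 6 of each of the mitotic, ER, heat shock, cholesterol and HSF lists by fold enrichment, with the peaks at the limits. Other genes named from a list were chosen after their values were seen. Some genes counted in the lists are not reported here by name.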

Additional observations from a re-analysis of the deposited data

How the results depend on the processing

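The results were recomputed with peaks of -log10 q of at least 5, a window of 50 or 150 bp around the summit, a start limit of 500 bp, any coding transcript start, any opposite-strand coding starts left out, the peak midpoint in place of the summit and, added after seeing the data, without the peaks that share sequence, and some results under measures of their own. Gene classes were recomputed only with the q-value filter and any transcript start, and other motifs only with the 50 bp window. Of 78 values, 64 stayed within the interval of the reported one or, for counts, within 1.5 times, and none reversed. The other 14 were as follows. The median distance of box to summit was 18 bp with the 50 bp window, 39 bp with 150 bp and 34 bp from the midpoint. The share of peaks with 2 or more boxes was 28.0% with 50 bp and 48.3% with 150 bp. The share of pairs 20 to 40 bp apart was 52.0% with 50 bp and 31.7% with 150 bp. The extended box was present in 43.2% and the GC box in 47.8% of windows of 50 bp. A nearest box 30 to 130 bp upstream was found in 42.3% of peaks within 500 bp of the start and in 47.7% with any transcript start. The log2 ratio of heights with and without a box was 0.0995 with the q-value filter and 0.105 for length. H3K27ac peaks covered at least 50% of the HSF1 peak in 2.67%. No paired analysis was possible because each antibody has 1 library and no groups were tested. The low depth of the H3K27ac list limits what its absence shows, and replicate variation of the HSF1 peaks is unknown.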
